A study of Arabidopsis thaliana with 6 samples.

Results

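The Arabidopsis thaliana genes AT1G49000, AT3G50900, AT1G19020 and AT5G28630 had higher signals in leaves sprayed with a detergent than with water, and little is known of their function. These 4 genes were selected on the measured ratio of the Tween 20 to the water signal, which was above 1 in all 3 pairs of arrays, so their Tween over water folds are a description and carry no test. Each gene had 1 probe set, and these 4 probe sets were taken from 13513 with 1 gene in the platform annotation and 22746 probe sets in all, controls left out. All 4 passed the filter on dim signals, which kept 14345 probe sets. To pass, a signal had to reach the 40th percentile of the array on 2 or more of the 6 arrays.

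The study sprayed the leaves of 28-day-old Col-0 plants, grown in sterile glass jars on a sugar-containing medium, with distilled water or with 1.6 mM Tween 20, a non-ionic detergent used to wet leaf surfaces. Experiments IA and IB, which the submitters call biological repetitions, had leaves collected at 1 h, and experiment II had them collected at 2.5 h. An Affymetrix whole-genome array was run for each spray of each experiment. Each array carried RNA pooled from 3 extracts of 1 experiment with 33 plants, so the spread between extracts cannot be seen. The groups were therefore water at 1 h (2 arrays), Tween 20 at 1 h (2 arrays), water at 2.5 h (1 array) and Tween 20 at 2.5 h (1 array). All 6 arrays came from sprayed plants, and unsprayed leaves were not analysed here. The protocol text of the labels names water for the Tween 20 samples and 2.5 h for both arrays of IA, against their titles, and the groups follow the titles and the design text.

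Plant leaves answer touch, wounding, microbial molecules and many foreign chemicals with a fast wave of transcription, in which calcium signals, protein kinases and transcription factors of the WRKY, ERF and zinc finger families take part. Many transcripts of this wave encode small proteins with no assigned biochemical role. AT5G28630 is annotated as a glycine-rich protein, AT1G49000 as a membrane protein of unknown role and AT3G50900 as a protein of unknown role. AT1G19020 encodes a small protein that recurs among transcripts induced by oxidative and other stresses in this species.

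The labelled tissue was checked against markers of leaf and root. Of 22 leaf markers, 2 had a probe set with 1 gene, RCA, the activase of the carbon-fixing enzyme Rubisco, and LHCB4.1, a light-harvesting protein. They lay at or above the 99.9th percentile of every array, and their summed signal ran from 6962 to 8748 units over the arrays. Of 9 root markers, 2 had a probe set. PYK10, a beta-glucosidase best known from roots, lay between 745 and 1127 units, at the 96.4th percentile or above, and EXPA7, an expansin of root hairs, between 7.1 and 17.1 units. The summed root signal was 853 to 1136 units under water and 758 to 989 units under Tween 20. It was lower with Tween 20 in IA and IB and higher in II, and its part in the results below was not tested.

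On the water arrays AT1G49000 was at 24.5 (IA), 17.7 (IB) and 16.9 units (II). On the Tween 20 arrays of the same experiments it had 105.1, 152.1 and 50.2 units. Every Tween 20 signal was above every water signal, with the highest in IB and the lowest at 2.5 h. In bulk leaf tissue such a difference does not tell more RNA per cell from more cells that hold the RNA. Tween 20 over water came to 4.29-fold in IA, 8.59-fold in IB and 2.97-fold in II, with a mean log2 fold of 2.26 ± 0.78 (SD, n = 3 pairs). On the water arrays of IB and II the gene lay below the 40th percentile, at 20.6 and 23.8 units, where signals are the noisiest. With each signal raised to at least that percentile, the folds were 7.38 in IB and 2.11 in II.

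AT3G50900 had 53.5 (IA), 62.9 (IB) and 26.5 units (II) on the water arrays and Tween 20 signals of 232.3, 207.7 and 108 units. The groups did not overlap, and both arrays of II were the lowest of their spray. The folds of 4.34, 3.3 and 4.08 lay close together, with a mean log2 fold of 1.96 ± 0.21 (SD, n = 3). Among the 4 genes this was the smallest spread between pairs, although the signals themselves spanned 1.25 log2 units over the water arrays and 1.10 over the Tween 20 arrays. The water and Tween 20 signals were thus both lower in II, by a like amount.

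For AT1G19020 the water arrays gave 145.6 (IA), 149.6 (IB) and 103.9 units (II). Its Tween 20 signals in the same order were 1509.9, 335.9 and 427.1 units. The groups did not overlap, and the Tween 20 array of IA stood far above the other two. This made 10.4-fold in IA, 2.25-fold in IB and 4.11-fold in II, with a mean log2 fold of 2.19 ± 1.11 (SD, n = 3). The water signals spanned 0.53 log2 units and the Tween 20 signals 2.17, so the pairs differed mainly on the Tween 20 side. Without IA the mean log2 fold was 1.60, and without IB it was 2.71. Within its array the transcript went from the 78.9th to the 98.8th percentile in IA, from the 79.8th to the 90.8th in IB and from the 71.9th to the 93.3rd in II.

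AT5G28630 had 87.4 (IA), 31.9 (IB) and 50.9 units (II) under water and Tween 20 signals of 253.7, 233.2 and 78.8 units. Here the groups overlapped, since the Tween 20 signal of II lay below the water signal of IA. Tween 20 was 2.9-fold above water in IA, 7.31-fold in IB and 1.55-fold in II, with a mean log2 fold of 1.68 ± 1.13 (SD, n = 3). Both 1 h Tween 20 arrays had nearly the same signal, and the larger fold of IB came with the lowest water signal of the 3. At 2.5 h the transcript was below a 2-fold difference. Without IB the mean log2 fold was 1.08.

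**Figure D1:**
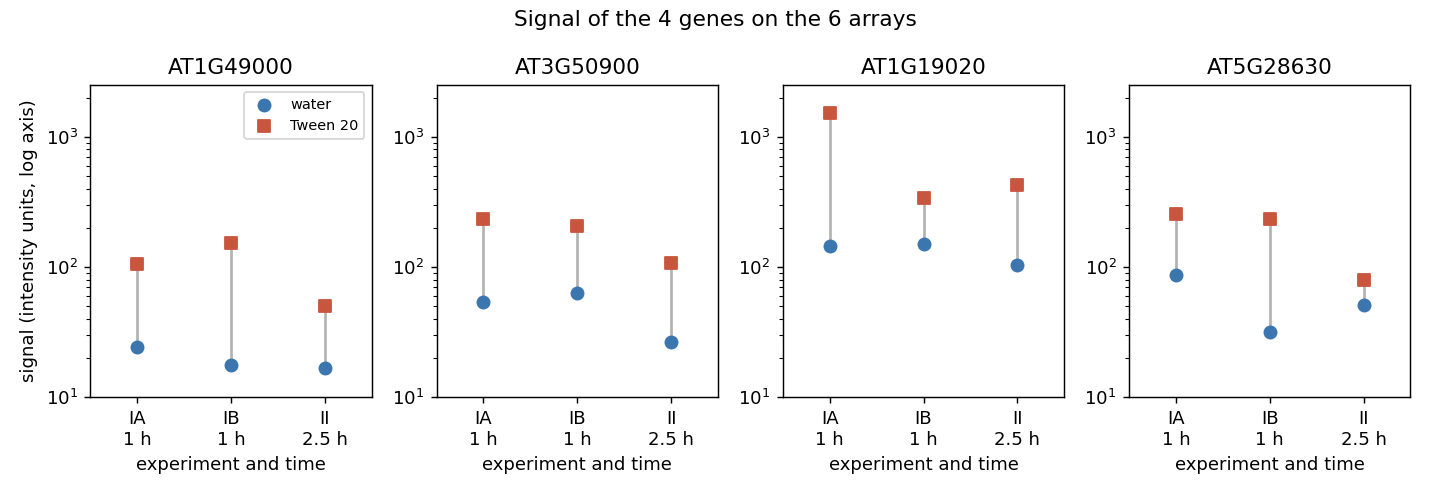
Signal in intensity units on a log axis for each gene, with 1 panel a gene, circles for water and squares for Tween 20, and a grey line joining the 2 arrays of an experiment (IA and IB at 1 h, II at 2.5 h). The line is long in IB for AT1G49000 and AT5G28630, in IA for AT1G19020, and of nearly equal length in all 3 experiments for AT3G50900.

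The direction of the 4 genes was fixed by their choice, and they did not share the order of the pairs. IB gave the largest fold for AT1G49000 and AT5G28630, and II the smallest. For AT1G19020 the fold was largest in IA and smallest in IB. The folds of AT3G50900 had that order too, but lay too close together to rank the pairs. Among the 2185 tested probe sets that were higher in all 3 pairs, the largest fold was in IA for 987, in IB for 756 and in II for 442.

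**Figure D2:**
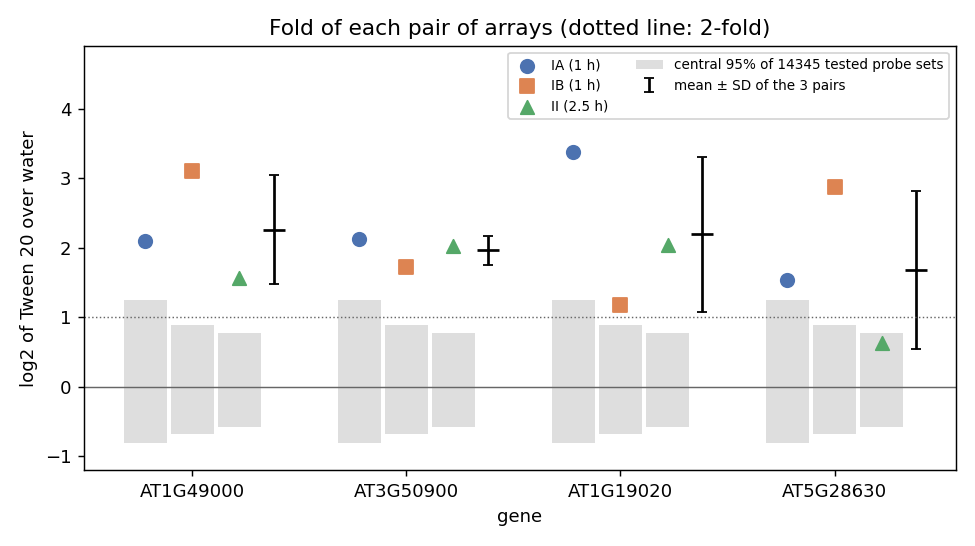
log2 of Tween 20 over water for each gene in IA (circles), IB (squares) and II (triangles), with the mean ± SD of the 3 pairs in black and the central 95% of the 14345 tested probe sets as grey bars. All points lie above the grey bar of their pair except II of AT5G28630, which lies within it.

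Measured against the study's 2-fold criterion, AT1G49000, AT3G50900 and AT1G19020 were past it in all 3 pairs, and AT5G28630 in IA and IB. The background was 4.15% (IA), 1.84% (IB) and 1.17% (II) of bright probe sets and 0.218% in all 3 pairs, where 29 of 13310 met it (33 without IA, 114 without IB and 109 without II). A pair was counted as bright where its higher signal reached the 40th percentile of its array. Since this difference chose the genes, nothing is read from these counts. Tween 20 signals that all lay above all water signals were found for 3 of the 4 genes and for 4.56% of tested probe sets, and the same limit applies. Ranks by fold among the 14345 tested probe sets describe the values that chose the genes. AT1G49000 was number 94 in IA and is not ranked in IB and II, where its water signals were dim. AT5G28630 was number 227, number 4 and number 572, AT1G19020 number 16, number 181 and number 16, and AT3G50900 number 88, number 48 and number 17. IA held more large folds than the other pairs, with a 99th percentile of 1.81 on the log2 scale against 1.28 in IB and 1.06 in II, so that a like fold ranked lower there.

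By the smallest of the 3 folds, AT3G50900 came first, AT1G19020 number 9 and AT5G28630 number 87 among the 1183 tested probe sets with 1 gene that were higher in all 3 pairs. The smallest log2 fold of AT1G49000, 1.57 in II, was 1.08 with its dim water signal raised to the 40th percentile, and it is not ranked. Other ranked probe sets can hold dim signals too. In the fit over 3 experiments, which takes the experiment as a block, the estimates with their standard errors were 2.26 ± 0.27 for AT1G49000, 1.96 ± 0.13 for AT3G50900, 2.19 ± 0.36 for AT1G19020 and 1.68 ± 0.36 for AT5G28630. No p is given for these, for the reason above. Over all tested probe sets limma's test called 146 as higher (1.02%) and 15 as lower (0.105%) at an adjusted p under 0.05. Without IA or without II it called 0, and without IB 574 as higher and 156 as lower.

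The 2.5 h arrays were next set against the 1 h arrays within 1 spray. The signals of both sprays entered the choice of the genes, so their differences over time are a description with no test. Under Tween 20, AT5G28630 had 78.8 units at 2.5 h and a geometric mean of 243 at 1 h, a log2 difference of -1.63. AT1G49000 was at 50.2 against 126 units, a difference of -1.33, and AT3G50900 at 108 against 220 units, a difference of -1.02. For these 3 genes the 2.5 h signal was below both 1 h signals, as it was for 26.7% of tested probe sets.

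AT1G19020 did not share this. Its Tween 20 signal at 2.5 h, 427.1 units, lay between the 2 signals at 1 h, with a difference of -0.74 from their mean. Set against IB alone the 2.5 h signal was higher, by 0.35 on the log2 scale, and set against IA alone it was at -1.82. The 1 h repetitions of this gene under Tween 20 differed too much for a direction over time to be given.

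On the water arrays, AT3G50900 was at 26.5 units at 2.5 h against a geometric mean of 58 at 1 h, a log2 difference of -1.13 (95% interval -1.86 to -0.40). The water signals are the lower part of the ratio that chose the genes, so this interval describes spread and is no test. With 1 array at 2.5 h, the intervals rest on the spread between IA and IB. That spread is pooled over the water and Tween 20 arrays and joined with limma's prior from all tested probe sets. The other 3 genes differed by -0.30 (AT1G49000), -0.51 (AT1G19020) and -0.05 (AT5G28630). Whether an interval holds 0 is not used to tell the genes apart, since the signals of both sprays entered their choice. For AT1G19020 the SD of the 1 h arrays was 0.03 log2 units under water and 1.53 under Tween 20. Its water interval is thus wide through the Tween 20 arrays. The water signal at 2.5 h was below both 1 h signals for all but AT5G28630, against 26.0% of tested probe sets. A low water signal in II raises the fold there, so nothing is read from this. Over all tested probe sets limma passed 0 in either comparison (0%), with 333 at an unadjusted p under 0.05 on the water arrays and 683 on the Tween 20 arrays. The 2.5 h arrays are those of experiment II alone, so time and experiment cannot be told apart.

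**Figure D3:**
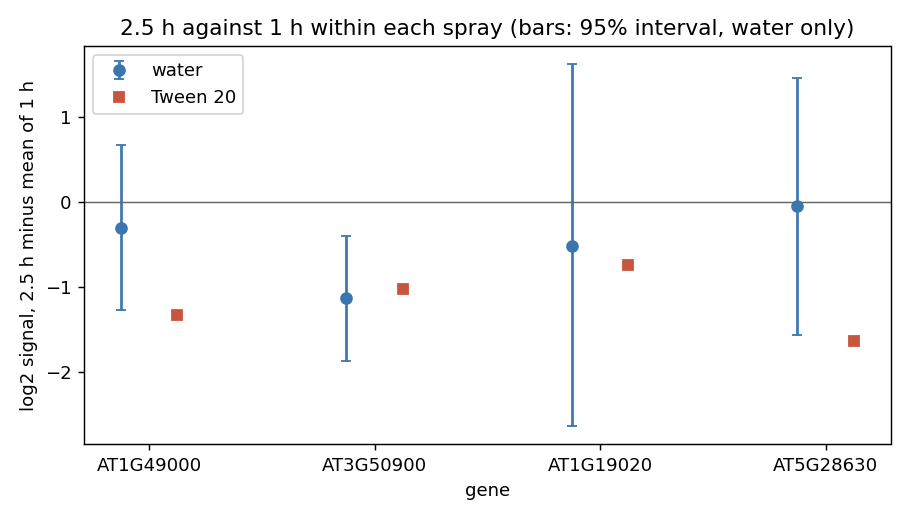
Log2 signal at 2.5 h minus the mean of the 2 arrays at 1 h for each gene, circles for water and squares for Tween 20. Bars are the 95% interval from limma for water, which rests on the spread between IA and IB under both sprays. AT3G50900 lies near -1 under both sprays, while AT1G49000 and AT5G28630 lie near 0 under water and below -1 under Tween 20. The water value of AT5G28630 is set against unlike 1 h arrays, 87.4 units in IA and 31.9 in IB.

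Taken as folds, the 2.5 h pair minus the mean of the 1 h pairs was -1.57 log2 units for AT5G28630 and -1.03 for AT1G49000. It was -0.23 for AT1G19020 and 0.11 for AT3G50900. For AT1G19020 the mean at 1 h joins unlike log2 folds, 3.37 in IA and 1.17 in IB, with 2.04 in II between them. AT3G50900 was the member whose fold at 2.5 h, 4.08, was closest to that of the 1 h pairs, whose mean was 3.79-fold. These differences come from the contrast that chose the genes and are given without a test.

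**Figure D4:**
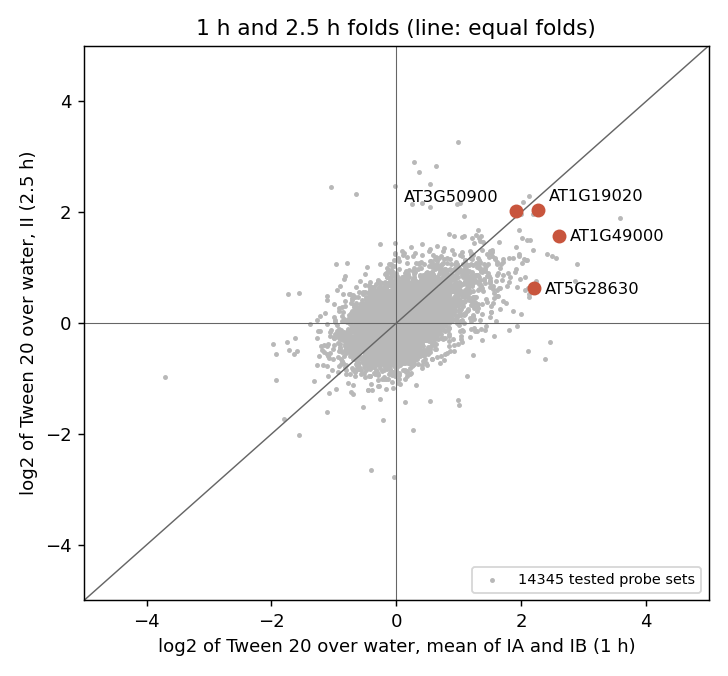
log2 of Tween 20 over water at 2.5 h (vertical) against the mean of IA and IB at 1 h (horizontal) for the 14345 tested probe sets in grey, with the 4 genes in red and the line of equal folds. AT3G50900 and AT1G19020 lie next to the line, and AT1G49000 and AT5G28630 lie below it. The 1 h value of AT1G19020 is the mean of unlike folds in IA and IB.

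Experiments also differed in their control signals. The actin signal at the 3' end over that at the 5' end is higher where RNA is broken or labelling is incomplete. As a log2 ratio it was 2.94 under water and 2.76 under Tween 20 in IB, against 4.13 and 4.26 in IA. In II it was 4 and 4.02. For ubiquitin it was II that differed, with 1.71 and 1.81, against 0.91 to 1.12 in IA and IB. IB is the pair in which AT1G49000 and AT5G28630 had their largest folds and AT1G19020 its smallest. The part of RNA quality in this was not tested.

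Over the 6 arrays the log2 signals of the 4 genes were correlated with each other. Pearson's r was 0.94 between AT1G49000 and AT3G50900 and 0.93 between AT1G49000 and AT5G28630. It was 0.87 between AT3G50900 and AT1G19020 and 0.82 between AT3G50900 and AT5G28630. AT1G19020 had its lowest values with AT1G49000 (0.79) and AT5G28630 (0.76). The 6 arrays share their spray groups, and the genes were chosen for a common difference between those groups, so these values describe the arrays only.

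The genes whose pattern was most like each member were the 5 with the highest Pearson's r of log2 signal over the 6 arrays, out of 7738 other tested probe sets with 1 gene. For AT1G49000 they were AT5G63410, a leucine-rich repeat receptor kinase (r = 0.992), AT3G09830, a receptor-like cytoplasmic kinase (0.986), AT1G53440, a receptor-like kinase (0.978), the protein kinase APK1A (0.976) and AT4G20830, of the berberine bridge enzyme family (0.975). The genes most like each member were picked by r, so arrays high or low in a member tend to be so in them. The spray difference that chose the members also enters r. Likeness in pattern did not mean likeness in size. The log2 fold of AT5G63410 was 0.64 (IA), 0.91 (IB) and 0.34 (II). AT3G09830 had 1.14, 1.28 and 0.75, in the same order of pairs as AT1G49000 but smaller. AT4G20830 went from 344.6, 346 and 256.8 units under water to 785.3, 798.1 and 535.4 units under Tween 20.

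For AT3G50900 the nearest gene was AT3G46110 (r = 0.998), with water signals of 41.9, 47.7 and 27.3 units and Tween 20 signals of 99.5, 91.6 and 60.2 units. It was low on both arrays of II, as AT3G50900 was. AT4G20830 followed (0.990) and was the 1 gene found for 2 members. The others were AT1G58420 (0.989), AT3G57700, of the protein kinase family (0.985), and AT2G23680, related to cold acclimation membrane proteins (0.984).

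For AT1G19020 the nearest were AT5G41800, of the amino acid transporter family (r = 0.989), the transcription factor WRKY22 of immune signalling (0.989), AT3G25610, a phospholipid-transporting ATPase (0.986), AT5G25930, a leucine-rich repeat receptor kinase (0.986), and AT4G36500 (0.984). WRKY22 had a log2 fold of 1.62 (IA), 0.60 (IB) and 0.91 (II). AT3G25610 had 3.06, 0.88 and 1.22, and AT5G25930 had 2.45, 0.60 and 1.28. In all 5 the Tween 20 array of IA was the highest of the 6, as it was for AT1G19020, which follows from their choice by r.

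For AT5G28630 they were AT2G23300, a leucine-rich repeat receptor kinase (r = 0.991), AT1G80530 (0.986), AT2G04795 (0.980), AT5G39020, a receptor-like kinase (0.979), and AT1G63830 (0.975). AT5G39020 went from 43.3, 22.6 and 33.7 units under water to 105.9, 97.1 and 57.8 under Tween 20, with its lowest water signal in IB, as AT5G28630. AT2G23300 had log2 folds of 1.05, 1.56 and 0.28. With 6 arrays such values are easily high, and between 69 and 109 genes had an r above 0.9 with a member.

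**Figure D5:**
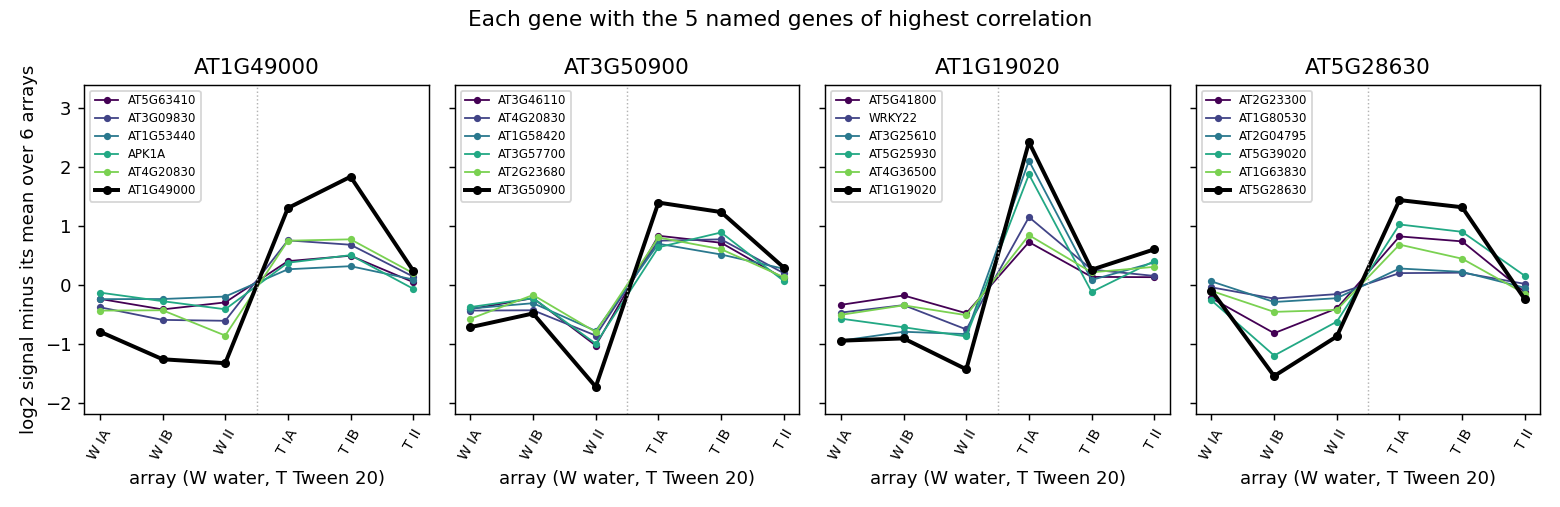
Log2 signal minus its mean over the 6 arrays, in the order water IA, IB, II and Tween 20 IA, IB, II, for each gene (black) and the 5 named genes with the highest correlation to it (coloured). The black line has the widest span in each panel, and the panels differ in which Tween 20 array is highest.

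The genes beside each member in the TAIR10.1 annotation gave a further comparison. Of the 8 nearest neighbours, 3 had a probe set with 1 gene and 2 passed the filter on dim signals. AT3G50910, beside AT3G50900, had a log2 fold of 0.35 in IA, 0.15 in IB and 0.45 in II. AT1G19010, beside AT1G19020, had 0.48, -0.02 and 0.24. Neither came near the fold of its neighbour in any pair. AT1G19025, whose annotated span overlaps the end of AT1G19020, had 1.1 to 9.7 units on all 6 arrays, below the 40th percentile throughout.

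The members were set beside a list of early stress and defence regulators, which was drawn up with earlier results of these data known. Of its 57 entries 11 had a probe set and 10 were tested. Its counts and p-values therefore describe the list, and nothing is read from their difference to the background. All 10 estimates over the 3 experiments were above 0, against 41.1% of all tested probe sets, with a median of 1.04 against -0.04. In IB alone some of them were below 0, the lowest at a log2 fold of -0.31. Of the 10, 2 passed limma's test as higher, against 1.02% of all tested. PUB22, a ubiquitin ligase that dampens immune responses, rose by 1.43 ± 0.12 (log2, SE, adjusted p = 0.0139, limma), and CML42, a calmodulin-like calcium sensor, by 1.31 ± 0.22 (adjusted p = 0.0493). Neither passed without IA (adjusted p = 0.0763 for PUB22 and 0.154 for CML42), without II (0.0673 for both) or without the experiment as a block (0.382 and 0.716). CML42 also failed to pass with quantile normalization (limma, adjusted p = 0.0618), median centring (0.0719), a pseudocount (0.0548), no filter (0.239) or no variance trend (0.108). PUB22 did not pass with no filter (limma, adjusted p = 0.12) or no variance trend (0.0576). PUB23, a close relative of PUB22, was at 1.38 ± 0.28 (adjusted p = 0.0774).

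In IA the median log2 fold of these regulators was 1.73, with 0.54 in IB and 0.87 in II. That order of the medians was also seen for AT1G19020, while AT1G49000 and AT5G28630 had their largest folds in IB. Single regulators differed in their order. PUB23 had log2 folds of 2.08 (IA), 0.48 (IB) and 1.59 (II), in the order of the medians. PUB22 had 1.28, 1.45 and 1.56, and CML42 had 1.83, 1.48 and 0.63, in other orders. AT3G50900 had the order of AT1G19020, but its log2 folds of 2.12, 1.72 and 2.03 lay too close together to rank the pairs. In the chemical detoxification and redox list 5 of 17 entries had a probe set, 4 were tested, 4 estimates were above 0 (41.1% of all tested) and 0 passed limma's test (1.02% of all tested were higher). This list too was drawn up with earlier results of these data known, so nothing is read from its counts. The median was 1.22 over the 3 experiments and 2.31, 0.30 and 0.85 in IA, IB and II. UGT73B5 and UGT73B4, which attach sugars to foreign compounds and hormones, had 3.36, 0.62 and 0.80 and 2.77, 0.27 and 1.27, and the glutaredoxin GRX480 had 1.84, 0.28 and 0.91.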

How the data were processed

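The authors deposited intensities, 1 linear signal for each probe set and array. Per the submitters' processing notes the tool was MAS5, with version and settings not given in the sources used here. A 2% trimmed mean of each array was 100.008 or 100.009, so arrays appear scaled to 1 target, which hides a shift of most transcripts. Intensities were used as deposited, signals below 0.1 were set to 0.1, and log2 was taken. No detection calls were used, and 0 columns were identical. Of 22810 probe sets 64 were controls. Names came from the GEO platform annotation, and of 13513 probe sets with 1 gene 13436 matched RefSeq TAIR10.1 by gene identifier. No coordinates are given, because no build is named for the probes.

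With limma 3.58.1 (R 4.3.3), Tween 20 and water were compared on all 6 arrays with the experiment as a block, and 2.5 h with 1 h in 4 groups without a block, both with eBayes, a variance trend on intensity, and p-values adjusted after Benjamini and Hochberg (threshold 0.05). Both fits left 2 residual degrees of freedom, to which the prior added 5.03 and 3.49. The spread at 2.5 h rests on the 1 h repetitions of both sprays. No p is given for the members over time, since the signals of both sprays entered their choice. The fits were tested on simulated data with independent noise. For the time fit these data held no shifts between experiments. They cannot show how that fit does where time and experiment cannot be told apart, as here. Samples of 1 experiment are paired by the titles and design text, and their deviations from the mean of their spray correlated at 0.576 (IA), 0.714 (IB) and 0.711 (II). Where extracts came from is stated only as independent repetitions, so p-values measure the spread between pooled arrays.

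Members and lists were chosen with earlier results of these data known. Named genes are the 4 members, the 5 most alike in pattern, the annotated neighbours and the 3 largest estimates of each list. Protein and promoter features were planned and were not analysed here. Alternatives were scaling, pseudocount (16), filter, variance trend, block and left-out experiments.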

Additional observations from a re-analysis of the deposited data

How the results depend on the processing

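The mean log2 folds of the 4 genes had a direction fixed by their choice. Those of AT1G49000, AT1G19020 and AT5G28630 moved by less than the SD of their pairs in each alternative. That of AT3G50900 was 1.63 with a pseudocount of 16, beyond its small SD. Leaving out 1 experiment cannot move a mean by that SD, and dropping the block cannot move it at all. Nothing is therefore read from the small moves in these alternatives. Leaving out 1 experiment gave 1.84 to 2.60 for AT1G49000, 1.88 to 2.07 for AT3G50900, 1.60 to 2.71 for AT1G19020 and 1.08 to 2.2 for AT5G28630. At 2.5 h against 1 h, AT5G28630 under water ran from -0.78 without IB to 0.67 without IA, against -0.05, and AT1G19020 under Tween 20 from -1.82 to 0.35, against -0.74. These values have no test, since leaving out a 1 h experiment leaves no residual degrees of freedom, and the counts were not run there.

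The counts of limma's paired fit, 146 higher and 15 lower, were 87 and 5 with median centring, 0 and 0 with no filter, 1 and 1 without the variance trend, and 0 and 0 with no replicate block, in which the mean folds of the members do not change. Without an experiment they ran from 0 to 574 and from 0 to 156, both largest without IB. The causes were not tested.

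The 2-fold counts (IA, IB, II, all 3 pairs) were 587, 260, 165 and 29. They were 378, 142, 65 and 12 with the pseudocount, 1819, 1479, 1275 and 95 with no filter, and 1244, 838, 662 and 174 at 1.5-fold. That of II was 89 with the filter at the 60th percentile. With 1 pair left out, an alternative chosen after seeing the data, 33 to 114 probe sets were 2-fold higher in the other pairs. Raising dim signals to the 40th percentile was also added then, and it gave AT1G49000 a mean log2 fold of 2.02. Of the 5 genes most like each member, 4 were kept with the pseudocount for AT1G49000, AT3G50900 and AT1G19020, and all 5 for AT5G28630. By Spearman's rank correlation AT1G53440 was number 245 for AT1G49000 and AT1G80530 number 76 for AT5G28630. The others were at number 23 or better. The water signals of AT1G49000 in IB and II lay below the 40th percentile.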
